A study of Homo sapiens with 9 samples.

Results

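TNRC6A, SFPQ, CLASRP and NCL are 4 protein-coding genes that each hold a DHX34 seCLIP peak with a 3 or a 4 in the fourth column of the deposited peak list, the highest numbers in that column. They were chosen by this number, which is a whole number from 1 to 4 whose meaning the list does not state, so it is given here as a description and supports nothing. The peaks described are all those that lie wholly inside the 4 genes in the GENCODE annotation, 7 peaks of the 2261 in the list. Of these, 4 carry the numbers that chose the genes (4 in TNRC6A, 3 in each of SFPQ, CLASRP and NCL) and 3 are further peaks with a value of 1. ATG16L1 also has a peak with a value of 3 but is not among the genes described, and is named below only where the values are ranked.

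DHX34 is a DExD/H-box RNA helicase with a known part in nonsense-mediated decay, the pathway that removes mRNAs with premature stop codons. In seCLIP (single-end enhanced crosslinking and immunoprecipitation), proteins are fixed by UV to the RNA they contact, and the fragments that are pulled down with the protein of interest are read. All 9 libraries were made from HEK293T, which is a cell line of human embryonic kidney origin, after UV crosslinking and with anti-GFP. The tagged group had 5 libraries labelled GFP_IP from cells with DHX34-GFP; by the methods these cells were a single clone, A5, with GFP and FLAG on DHX34. The control group had 4 libraries from cells with no tag, labelled as inputs, which by the methods came from the parental line. The list is a single set of peaks over the tagged libraries, with no strand, no read count and no value per library. Depth, the spread between replicates and the background level in the controls are therefore unknown for every peak below, and no difference was tested.

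The transcripts of the 4 genes encode RNA-binding or RNA-processing proteins. TNRC6A (GW182) is the scaffold that links Argonaute proteins to the deadenylase complexes in microRNA-mediated silencing. SFPQ is a member of the DBHS family, abundant nuclear proteins that act in splicing and transcription and form paraspeckles. CLASRP is an SR-related protein that associates with the CLK kinases, which phosphorylate splicing factors. NCL encodes nucleolin, a major nucleolar protein that acts in ribosome assembly and whose introns are known to host snoRNAs. Splicing joins exons by cutting at the 5′ splice site, where an intron begins, and at the 3′ splice site, where it ends. A peak that spans such a boundary lies on a sequence that is contiguous in the unspliced transcript.

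The sequences of the 4 peaks with a value of 3 or 4 are shown first because each crosses a 5′ splice site. They were read from the GRCh38 sequence on the strand of the gene, 5′ to 3′. Capitals mark exon bases of the MANE Select transcript, the reference transcript chosen for each gene, and lower case marks intron bases. The positions are chr16:24729846-24729961 (plus strand) for TNRC6A peak 1, chr1:35186990-35187247 (minus) for SFPQ peak 1, chr19:45057776-45057949 (plus) for CLASRP peak 1 and chr2:231463112-231463281 (minus) for NCL peak 1.
TNRC6A peak 1: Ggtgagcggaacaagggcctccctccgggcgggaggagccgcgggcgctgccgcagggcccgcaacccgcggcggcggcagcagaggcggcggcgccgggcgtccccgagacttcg
SFPQ peak 1: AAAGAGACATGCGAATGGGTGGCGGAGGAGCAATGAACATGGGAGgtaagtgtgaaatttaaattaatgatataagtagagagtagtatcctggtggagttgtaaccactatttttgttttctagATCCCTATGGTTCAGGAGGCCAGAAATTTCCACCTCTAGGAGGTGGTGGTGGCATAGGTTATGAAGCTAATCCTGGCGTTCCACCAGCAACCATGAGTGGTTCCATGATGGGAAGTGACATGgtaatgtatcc
CLASRP peak 1: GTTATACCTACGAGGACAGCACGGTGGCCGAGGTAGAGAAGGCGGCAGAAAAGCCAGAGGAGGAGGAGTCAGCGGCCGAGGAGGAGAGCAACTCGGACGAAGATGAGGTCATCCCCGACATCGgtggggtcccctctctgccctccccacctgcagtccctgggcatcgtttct
NCL peak 1: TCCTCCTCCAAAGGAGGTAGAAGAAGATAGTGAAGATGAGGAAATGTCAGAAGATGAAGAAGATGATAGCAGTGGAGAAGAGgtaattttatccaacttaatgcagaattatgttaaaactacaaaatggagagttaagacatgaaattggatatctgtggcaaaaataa

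The 3 peaks with a value of 1 follow, for comparison within the same genes. They lie at chr16:24750297-24750398 for TNRC6A peak 2, chr19:45070042-45070168 for CLASRP peak 2 and chr2:231461543-231462012 for NCL peak 2. The last is too long to print, so its first 150 bases are given (chr2:231461863-231462012, minus strand).
TNRC6A peak 2: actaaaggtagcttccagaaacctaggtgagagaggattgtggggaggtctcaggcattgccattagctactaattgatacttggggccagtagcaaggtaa
CLASRP peak 2: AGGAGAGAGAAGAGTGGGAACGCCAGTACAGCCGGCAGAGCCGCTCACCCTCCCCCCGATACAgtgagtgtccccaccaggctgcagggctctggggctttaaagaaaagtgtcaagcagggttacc
NCL peak 2 bases 1 to 150: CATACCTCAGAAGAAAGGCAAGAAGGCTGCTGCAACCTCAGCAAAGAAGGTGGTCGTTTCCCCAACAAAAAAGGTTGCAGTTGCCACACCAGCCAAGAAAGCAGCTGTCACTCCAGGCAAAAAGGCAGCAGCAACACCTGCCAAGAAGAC

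In these 4 genes, 5 of the 7 peaks crossed an exon-intron boundary, and each of the 5 crossed a 5′ splice site. All 4 peaks with a value of 3 or 4 did so, as did CLASRP peak 2 among the 3 with a value of 1. In TNRC6A peak 1 the crossing rests on 1 exonic nt, and it was lost when 10 nt were required on each side, which left 4 of the 7 peaks across a 5′ splice site. Among the 1915 peaks of the list that lie wholly inside protein-coding genes, 16.3% crossed a boundary and 13.5% crossed a 5′ splice site. A 3′ splice site was crossed by SFPQ peak 1 alone, against 5.17% of the 1915 peaks. An exon of any transcript was overlapped by 6 of the 7 peaks, against 29.8%, the exception being TNRC6A peak 2. Here and below, shares over the 1915 peaks were not matched for width. Of the 7 peaks, 6 were wider than 110 nt, against 23.2% of the 1915. Beside CLASRP peak 2, the peaks with a value of 1 in these genes were wholly intronic (TNRC6A peak 2) or wholly exonic (NCL peak 2). With 4 genes picked by a score, these counts describe the 7 peaks and do not estimate a rate.

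**Figure D1:**
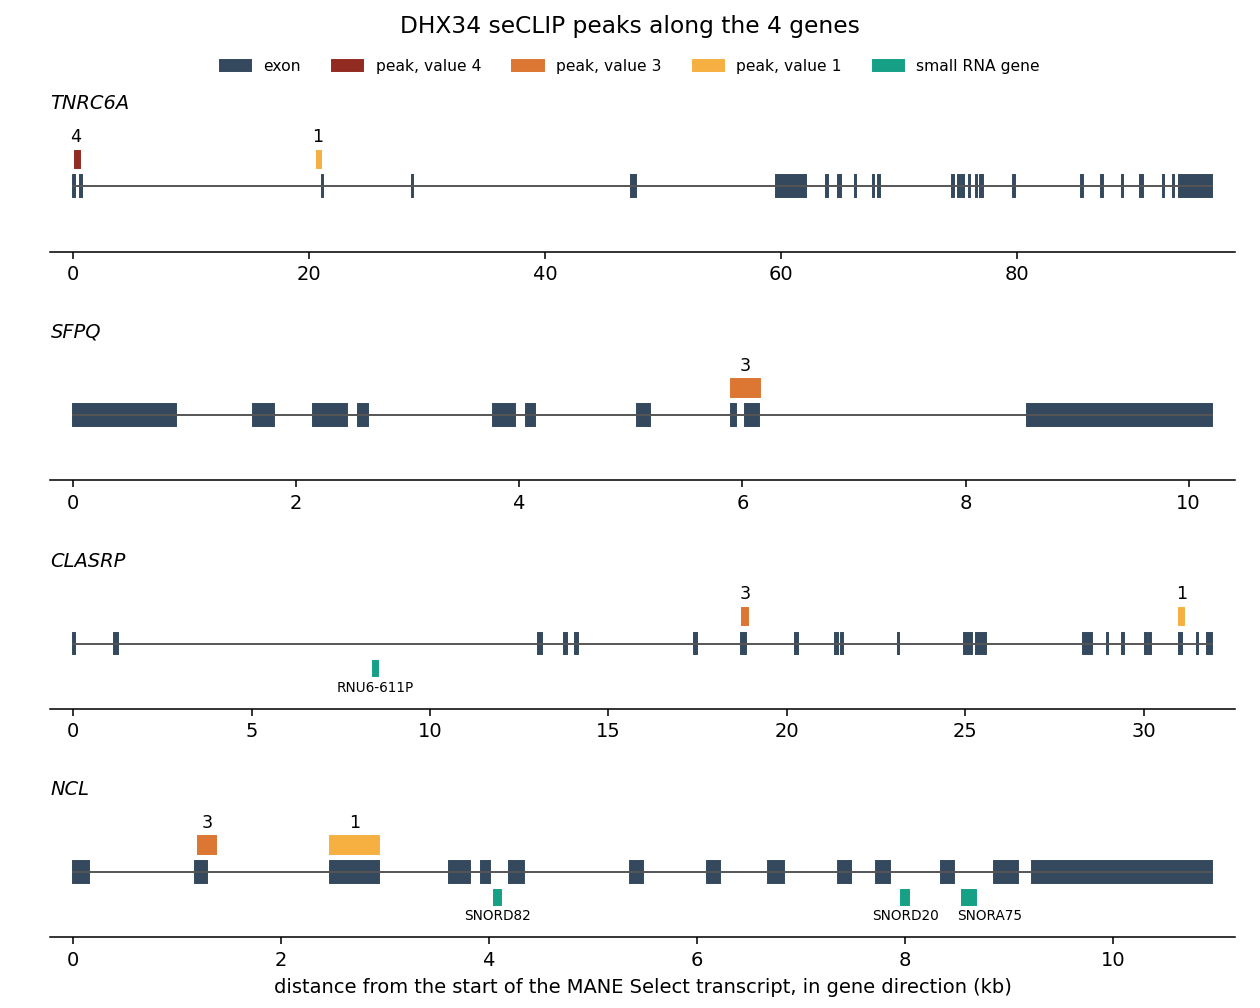
Peaks along TNRC6A, SFPQ, CLASRP and NCL, drawn to scale in each panel as distance in kb from the start of the MANE Select transcript; dark boxes are exons, coloured boxes above are peaks with their fourth-column value, and green boxes below are small RNA genes, with a minimum drawn width for the shortest boxes. The peaks with a value of 3 or 4 begin 0.195 kb (TNRC6A), 5.9 kb (SFPQ), 18.7 kb (CLASRP) and 1.2 kb (NCL) from the start, and no peak lies on a small RNA gene.

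TNRC6A (ENSG00000090905.19) spans chr16:24610209-24827632 on the plus strand, 217 kb, and its MANE Select transcript has 25 exons over 96.6 kb. Peak 1, with the only 4 in the list, is 116 nt wide and begins on the last base of exon 1, so that 1 nt is exonic and 115 nt lie in intron 1. Exon 1 is 196 nt long and intron 1 is 406 nt, which is the 5th shortest of 24 introns whose median is 1474 nt. The peak covered 28.3% of intron 1 and ended 291 nt before the 3′ splice site of that intron. The 5′ splice site at its edge reads GAGgtgagc, with 3 exon bases and 6 intron bases, and is used by 3 annotated transcripts. No transcript of the retained intron type covers the intronic part, although 9 of the 18 TNRC6A transcripts are of that type.

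TNRC6A peak 2, 102 nt wide, lay 20335 nt downstream of peak 1 in intron 2. This is the longest of the 24 introns, at 20425 nt, and the peak sat near its end. The gap to the 3′ splice site before exon 3 was 327 nt and the gap to the nearest 5′ splice site, at the end of exon 3, was 415 nt. The peak touched no exon of any transcript. Both TNRC6A peaks thus lay in the part of the gene before exon 3, and no later intron held a peak.

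SFPQ (ENSG00000116560.12) spans chr1:35176378-35193446 on the minus strand, 17.1 kb, with 10 exons in its MANE Select transcript. Its single peak, 258 nt wide, was the widest of the peaks with a value of 3 or 4, and 78 of the 2261 peaks in the list were wider. It covered 45 of the 49 nt of exon 8 (91.8%), the whole of intron 8 (80 nt), the whole of exon 9 (122 nt) and the first 11 nt of intron 9. Intron 8 is the shortest of the 9 introns of SFPQ and intron 9 the longest, at 2407 nt. The peak thus joined a pair of exons across the intron between them and stopped just past the next 5′ splice site. A whole intron was held by 1.1% of the 1915 peaks. In all, 167 nt (64.7%) were exonic, all of them coding, and 91 nt intronic. No transcript of the retained intron type is annotated for SFPQ among its 11 transcripts, and the gene held no further peak.

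CLASRP (ENSG00000104859.15) spans chr19:45039045-45070956 on the plus strand, 31.9 kb, with 21 exons. Peak 1, 174 nt wide, began 26 nt inside exon 7 and covered the remaining 123 nt of this 149-nt exon (82.6%) and the first 51 nt of intron 7, which is 1369 nt long. A further 5′ splice site lies inside the peak, 107 nt from its 5′ edge and 16 nt upstream of the MANE Select site, and is used by 1 transcript annotated as a target of nonsense-mediated decay, CLASRP-207. The intronic 51 nt are exonic in CLASRP-209, a transcript of the retained intron type, so that the peak was 100% exonic over all transcripts and 70.7% exonic in the MANE Select transcript.

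CLASRP peak 2, 127 nt wide, lay 12092 nt downstream with the same layout. It began 20 nt inside exon 19, covered the remaining 63 of 83 nt and ran 64 nt into intron 19, which is 432 nt long. Its exonic part was 49.6% of the width. No retained intron transcript covers the intronic part of this peak. Both CLASRP peaks left the 3′ splice site and the first bases of their exon uncovered and spanned its 5′ splice site.

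NCL (ENSG00000115053.17) spans chr2:231453531-231483641 on the minus strand, 30.1 kb, and its MANE Select transcript has 14 exons. Peak 1, 170 nt wide, began 35 nt inside exon 2 (117 nt), covered the remaining 82 nt and ran 88 nt into intron 2. At 1182 nt this is the longest of the 13 introns of NCL, whose median is 494 nt. The retained intron transcript NCL-209 covers those 88 nt but not the whole intron, so that the peak was 100% exonic over all transcripts and 48.2% exonic in the MANE Select transcript. The 5′ splice site in the peak is shared by 20 of the 24 annotated NCL transcripts.

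NCL peak 2 lay 1099 nt downstream, at the other end of intron 2, and differed in layout from every other peak in the 4 genes. It was 470 nt wide and filled exon 3 from 5 nt after its 3′ splice site to 3 nt before its 5′ splice site, 98.3% of 478 nt, without crossing either. Only 26 of the 2261 peaks in the list were wider. Of 178 peaks of the list wholly inside a single exon, this was the only peak to cover 95% or more of that exon, a cutoff chosen after its value was seen. Exon 3 is coding throughout. Neither NCL peak reached the other across intron 2, whereas the SFPQ peak covered the 80-nt intron between its exons in full.

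**Figure D2:**
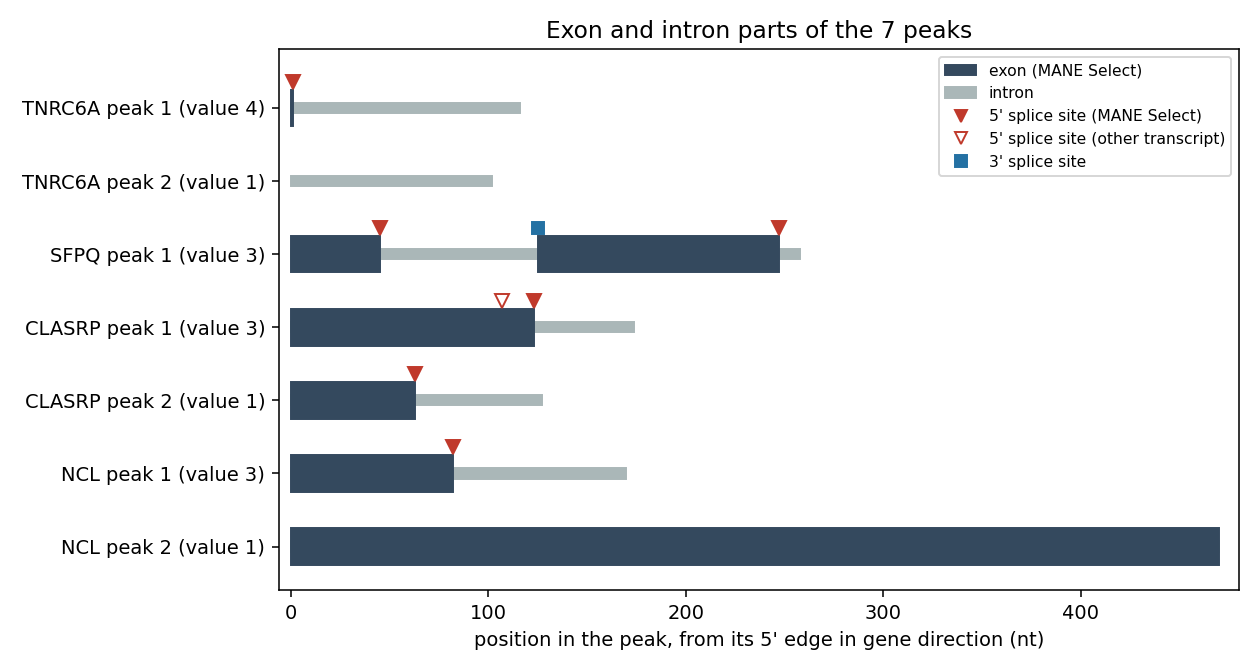
The 7 peaks drawn from their 5′ edge in the direction of the gene (x axis, nt), with MANE Select exon parts as tall dark bars, intron parts as thin grey bars, triangles at 5′ splice sites (open for a site of another transcript) and a square at the 3′ splice site. The exonic part before the first MANE Select 5′ splice site ranges from 1 nt in TNRC6A peak 1 to 123 nt in CLASRP peak 1. NCL peak 2 is exonic over all 470 nt.

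How far a peak reaches past a 5′ splice site was compared over the 200 peaks in protein-coding genes that cross exactly 1 MANE Select splice site, a 5′ one. Their intronic parts ran from 2 to 326 nt with a median of 48 nt, and their exonic parts from 1 to 754 nt with a median of 79 nt. The 115 intronic nt of TNRC6A peak 1 were exceeded by 7 of the 200 peaks, and none had a shorter exonic part. The 88 intronic nt of NCL peak 1 were exceeded by 32 peaks. The CLASRP peaks, with 51 and 64 intronic nt, were exceeded by 91 and 54 peaks and so lay nearer the middle. TNRC6A peak 1 is thus almost wholly past the site, whereas the CLASRP and NCL peaks straddle it. SFPQ peak 1 crosses more than 1 site and is not among the 200. The exonic and intronic parts sum to the peak width, whose lowest and median values over the whole list were 100 and 103 nt. Reads were extended to a fixed length before peaks were called, so the reach past a site also depends on that setting. How much it does was not tested.

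**Figure D3:**
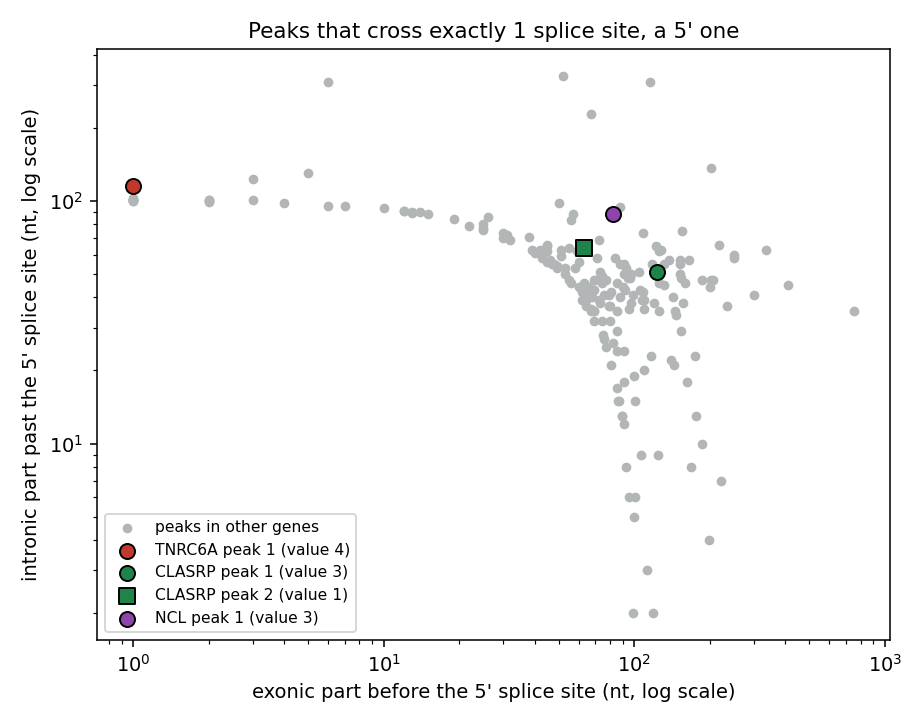
Exonic part (x axis, nt, log scale) against intronic part (y axis, nt, log scale) of the 200 peaks that cross exactly 1 MANE Select splice site, a 5′ one; grey points are peaks in other genes and coloured points are peaks in TNRC6A, CLASRP and NCL, with a square for the value of 1. TNRC6A peak 1 sits at the left edge with 1 exonic and 115 intronic nt, and NCL peak 1 sits in the upper right with 82 and 88 nt.

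The 5′ splice sites inside the peaks differed in their sequence. Each site was scored on 9 bases, 3 of the exon and 6 of the intron, as the summed log2 ratio of the base frequencies at all MANE Select 5′ splice sites to an equal use of bases, and ranked among the 181844 such sites. Exon 8 of SFPQ ends in GAGgtaagt, with a score of 11.96 at the 95.9th percentile, and the same 9 bases occur at 1060 sites. TNRC6A exon 1 (GAGgtgagc, 9.43) stood at the 69.4th percentile and NCL exon 2 (GAGgtaatt, 8.59) at the 56.6th.

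The remaining sites ranked lower. CLASRP exon 19 (ACAgtgagt) scored 6.37, at the 23.7th percentile, and SFPQ exon 9 (ATGgtaatg) scored 5.89, at the 19.9th. CLASRP exon 7 (TCGgtgggg) scored 3.93, at the 4.11th percentile, and its 9 bases occur at 7 of the 181844 sites. The decay transcript's site 16 nt upstream in the same exon (GAGgtcatc) scored 2.32, at the 1.37th percentile, and its 9 bases occur at 0 MANE Select sites. The sites under these peaks thus ran from near the top to near the bottom of the ranking, with both sites of CLASRP peak 1 at the bottom.

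Introns annotated as retained were touched by 2 of the 7 peaks, CLASRP peak 1 and NCL peak 1, against 6.06% of the 1915 peaks in protein-coding genes. Both have a value of 3. In both, the retained intron transcript covers the intronic bases of the peak but ends within the intron, and no annotated transcript covers either MANE Select intron from end to end. Cassette exons, counted as internal exons of the MANE Select transcript that another transcript skips, were overlapped by 0 of the 7 peaks, against 2.87%. First and last exons were not counted, and exon 1 of TNRC6A, of which peak 1 holds 1 nt, lies within an intron of 1 other transcript, TNRC6A-211.

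Hosted small RNAs were overlapped by none of the 7 peaks, against 0.522% of the 1915. NCL hosts 3 snoRNAs, SNORD82 in intron 5, SNORD20 in intron 11 and SNORA75 in intron 12, which guide chemical modification of other RNAs. The nearest of them, SNORD82, lay 1102 nt from NCL peak 2, and SNORD20 and SNORA75 lay 5019 and 5606 nt from it. CLASRP holds RNU6-611P, a pseudogene of the U6 spliceosomal RNA, in intron 2 and 10214 nt from CLASRP peak 1. SFPQ and TNRC6A hold no small RNA gene on this annotation. TNRC6A overlaps a pair of antisense lncRNA genes, LINC01567 and ENSG00000261669, which lay 58783 nt from peak 1 and 53052 nt from peak 2. No gene on the other strand overlapped any of the 7 peaks, whereas 157 of the 1915 peaks overlapped such a gene, so the missing strand does not change the gene to which these 7 peaks are given.

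The G and C content of the 7 peaks lay on both sides of the median. TNRC6A peak 1 was 81% G and C, which 10 of the 1915 peaks exceeded, and 44.8% G, which 87 exceeded. NCL peak 1 was 34.7% G and C, and 1683 of the 1915 peaks were higher. SFPQ peak 1 (44.2%) and TNRC6A peak 2 (47.1%) fell below the median of 50.5% over the 1915, and NCL peak 2 (52.1%), CLASRP peak 2 (59.8%) and CLASRP peak 1 (62.1%) above it.

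The share of purines (A and G) was above the median of the 1915 peaks, 53.9%, in all 7 peaks, from 56.9% in CLASRP peak 1 to 67.1% in NCL peak 1. The NCL peaks were the highest in this respect: 127 of the 1915 peaks exceeded NCL peak 1, and 151 exceeded NCL peak 2 at 66.2%. The peaks of TNRC6A, SFPQ and CLASRP lay nearer the middle, exceeded by 451 to 661 of the 1915. The median was matched neither for width nor for exon overlap, which 6 of the 7 peaks had against 29.8% of the 1915. In NCL peak 1 the 50 nt richest in purines were bases 10 to 59, at 84%, all in exon 2. In NCL peak 2 they were bases 281 to 330, also at 84%, and the 50 nt richest in G were bases 301 to 350, at 50%. The stretch that holds both windows, chr2:231461663-231461732 on the minus strand and wholly in exon 3, is printed because it carries the 3 copies of GAGGAG in this peak.
NCL peak 2 bases 281 to 350: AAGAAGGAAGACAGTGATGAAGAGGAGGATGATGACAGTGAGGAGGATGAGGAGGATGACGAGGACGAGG

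The purine share was compared on either side of the 5′ splice site in the 3 peaks that cross a single MANE Select site with bases enough on each side. In CLASRP peak 1 they made up 68.3% of the exonic and 29.4% of the intronic bases. In NCL peak 1 the shares were 74.4% and 60.2%, and in CLASRP peak 2 58.7% and 56.2%. The exonic share was thus the higher in these 3 peaks, by margins from small to large. Among the 148 peaks that cross 1 MANE Select 5′ splice site alone with at least 20 nt on each side, the medians were 61.3% and 51%, and 112 of the 148 had the higher share in the exonic part. TNRC6A peak 1 has 1 exonic base and SFPQ peak 1 holds a whole intron with its 3′ splice site, so neither gives such a comparison.

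**Figure D4:**
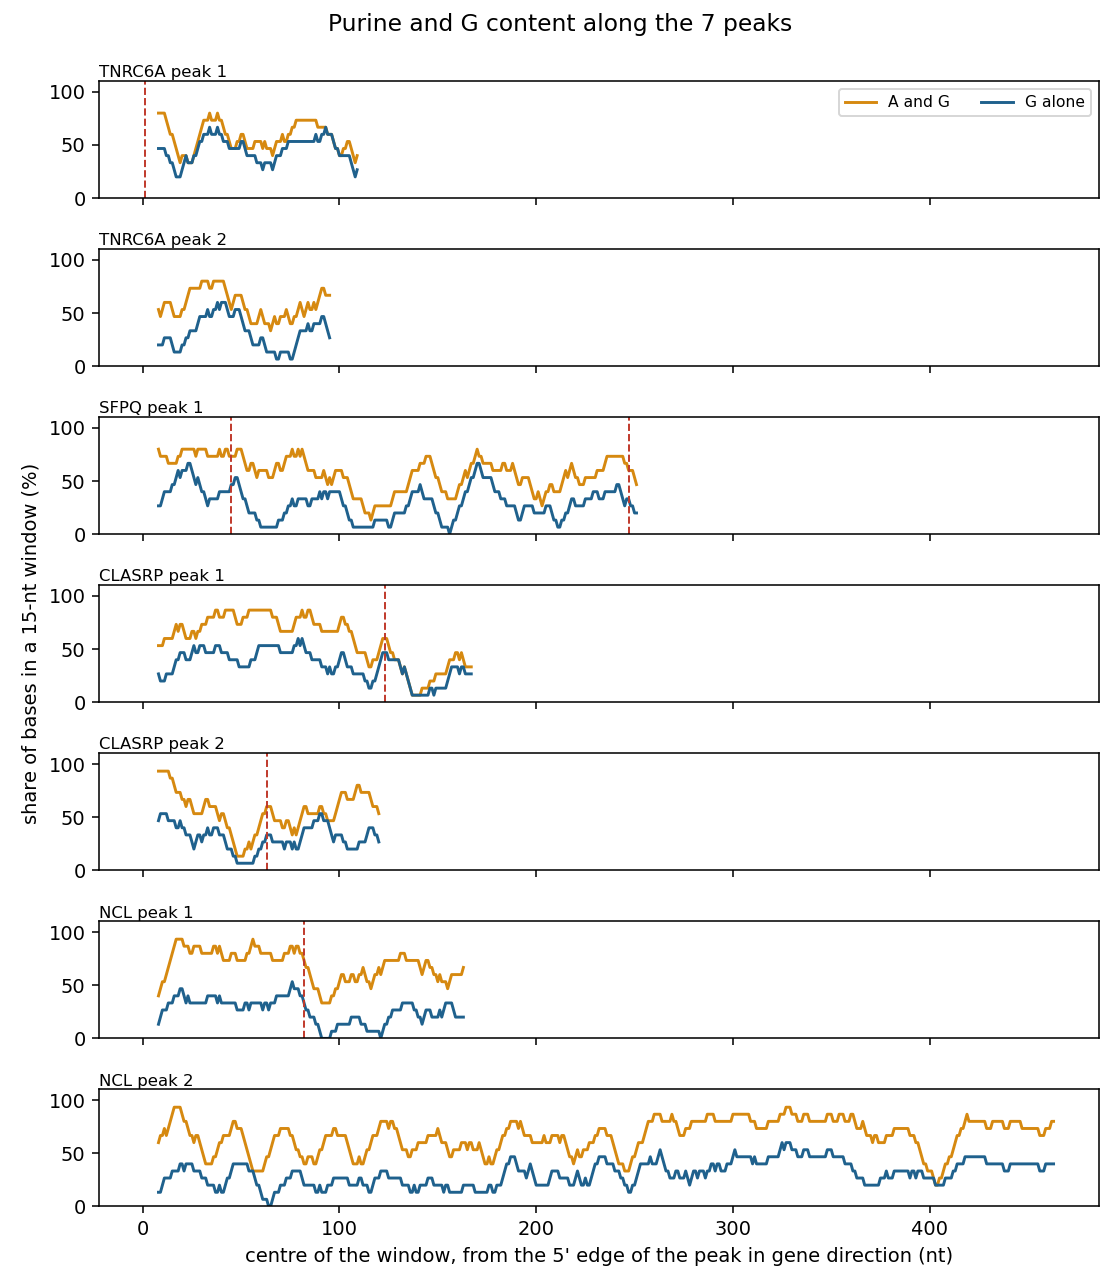
Share of purines (A and G, orange) and of G alone (blue) in windows of 15 nt along each of the 7 peaks (y axis, %; x axis, nt from the 5′ edge in gene direction), with dashed red lines at MANE Select 5′ splice sites. Purines fall past the splice site in CLASRP peak 1, from 68.3% of the exonic to 29.4% of the intronic bases, and NCL peak 2 is richest in purines in bases 281 to 330.

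Purine-rich hexamers were searched on the strand of the gene alone, with overlapping copies counted. The hexamer GAGGAG was held by 4 of the 7 peaks, against 15.1% of the 1915 peaks. CLASRP peak 1 held 5 copies, all in exon 7, NCL peak 2 held 3, and TNRC6A peak 1 and SFPQ peak 1 held 1 each. These 4 peaks were 116 to 470 nt wide, against a median of 103 nt over the 2261 peaks of the list. The share over the 1915 was matched neither for width nor for exon overlap. The hexamer GGGGAG was held by TNRC6A peak 2 alone, against 14.9% of the 1915. None of the 7 peaks held the hexamer GGAGGG, against 16.6%. A pattern of 4 runs of at least 3 G with 1 to 7 bases between them, the form searched for G-quadruplexes, was in none of the 7 peaks, against 7.05%. These matches describe letters in the peaks and name no binding site.

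The fourth-column values were ranked over the whole list because they chose the genes. The value was 1 in 2209 peaks, 2 in 47, 3 in 4 and 4 in 1. The widths of the 5 peaks with 3 or 4 ran from 116 to 258 nt. Their median was 170 nt, against 127 nt at the value of 2 and 103 nt at the value of 1. How the value was made is not stated, and its relation to width was not tested. Of all 1915 peaks in protein-coding genes, 23.2% were wider than 110 nt, and 6 of the 7 peaks in the 4 genes were, TNRC6A peak 2 being the exception. NCL peak 2, the widest of the 7, has a value of 1, and TNRC6A peak 1, with the value of 4, is the narrowest of those with 3 or 4.

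Just inside the limit for the 4 genes stand the peaks with a value of 3 in SFPQ, CLASRP and NCL, and just outside it the 47 with a value of 2, of which 39 lie in 38 protein-coding genes. Of those 39 peaks, 11 (28.2%) crossed a boundary, each at a 5′ splice site, and 17 (43.6%) overlapped an exon. At the value of 1 a boundary was crossed by 298 of 1871 peaks (15.9%). These shares were not matched for width, and their relation to the value was not tested. The peak in ATG16L1, an autophagy gene, has the value of 3 at chr2:233275865-233275994, is 130 nt wide and wholly intronic, and overlaps the small Cajal body RNA gene SCARNA5. Of the 5 highest peaks it alone lay on a small RNA gene, and it alone crossed no boundary where 1 nt on each side sufficed. With 10 nt required on each side, TNRC6A peak 1 crossed none either.

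**Figure D5:**
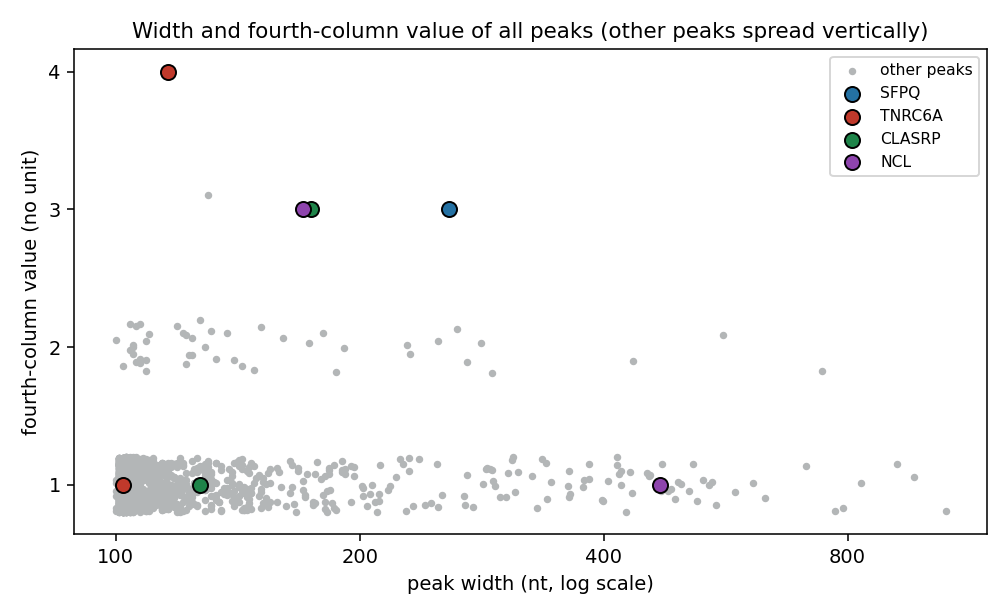
Width (x axis, nt, log scale) against fourth-column value (y axis, no unit) of the 2261 peaks, with the 7 peaks of TNRC6A, SFPQ, CLASRP and NCL in colour and the other peaks spread vertically around their whole number for visibility. The coloured peaks at 3 and 4 are 116 to 258 nt wide, and NCL peak 2, at 470 nt, has a value of 1.

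More than 1 peak was found in 3 of the 4 genes, against 15.4% of the 1595 protein-coding genes with a peak. Neighbouring peaks of the same gene lay 30435 nt apart in the median over 320 such gaps, with the shortest at 236 nt. The gap in NCL, 1099 nt, had 14 shorter ones, that in CLASRP, 12092 nt, had 97, and that in TNRC6A, 20335 nt, had 123. In each of the 3 genes the peak nearer the transcript start was the one whose value chose the gene. The other had a value of 1. This order was not compared over other genes and describes these 3 alone.

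Other genes of the same pathways were looked up in 4 lists, one for each gene's role, beside a share of 8.17% of all protein-coding genes with at least 1 peak. Of the 87 listed genes, 17 (19.5%) held 19 peaks. All of these had a value of 1, as had 2209 of the 2261 peaks in the list. An exon-intron boundary was crossed by 7 of the 19, each at a 5′ splice site, beside the 16.3% and 13.5% of all peaks in protein-coding genes. The lists were chosen with earlier results of these data known, longer genes offer more room for a peak, and no test was made of these shares.

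In the list for microRNA silencing, the pathway of TNRC6A, 4 of 26 genes (15.4%) had a peak. The Argonaute gene AGO3, the deadenylase subunit gene CNOT2 and PAN3, a subunit of another deadenylase, held theirs in intron 6, intron 1 and intron 4. CNOT1, the scaffold of the CCR4-NOT complex, had a peak of 145 nt across the 5′ splice site of exon 29. TNRC6B and TNRC6C, the paralogues of TNRC6A, had none.

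In the list for DBHS and paraspeckle proteins, the company of SFPQ, 3 of 13 genes (23.1%) had a peak. PSPC1, a paralogue of SFPQ, had a peak of 134 nt across the 5′ splice site of exon 6. RBM14 had an intronic peak, and CPSF6, a subunit of a cleavage factor for polyadenylation, an exonic peak in its last exon. NONO, the remaining DBHS gene, had none.

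In the list for SR proteins and their kinases, to which CLASRP relates, 7 of 26 genes (26.9%) had a peak. CLK2, a kinase of SR proteins, had a peak of 222 nt across the 5′ splice site of exon 3. LUC7L2 and LUC7L3, homologues of a U1 snRNP component that helps select 5′ splice sites, had peaks across the sites of exon 9 and of exons 8 and 9, with widths of 183, 141 and 195 nt. SRSF1, a founding SR protein, had a peak of 480 nt over exons 3 and 4. It crossed 3 annotated 5′ splice sites and 1 3′ splice site and overlapped a cassette exon. The peaks of SFSWAP (intronic), SRRM1 (exonic) and SRSF11 (intronic over all transcripts, outside the MANE Select transcript) were 103 to 105 nt wide and crossed no site. This list thus held 5 of the 7 peaks across a 5′ splice site.

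In the list for nucleolar ribosome assembly, the role of NCL, 3 of 22 genes (13.6%) had a peak, and none of their peaks crossed a splice site. DKC1, the pseudouridine synthase dyskerin, had an intronic peak of 166 nt, DDX21, a nucleolar helicase, an exonic peak of 211 nt in its last exon, and NOP14, a factor for the small ribosomal subunit, an exonic and an intronic peak of 106 and 104 nt. No other gene of the 4 lists had a peak in the form of NCL peak 2, filling its exon.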

How the data were processed

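seCLIP libraries were grouped by their labels into 5 DHX34-GFP anti-GFP immunoprecipitations and 4 untagged anti-GFP inputs. The submitters' processing notes name cutadapt, UMI-tools, Bowtie and MACS2 on GRCh38. Per the methods, the authors aligned reads with bowtie2, kept reads with a unique position, removed duplicates and reads in transposable elements, and called peaks with macs2, with reads extended to a fixed length, against merged controls. Extended reads can move a peak edge past a splice site, and bowtie2 does not split reads over introns. The deposited list was taken to be the union over replicates. From their union the authors then selected fewer peaks, by a minimum read support and by how strongly reads were concentrated in the peak. A minority of the selected peaks reached that support in more than a single replicate. The 2261 peaks of the list, and the 1915 in protein-coding genes, outnumber the selected set. Shares over them therefore include peaks the authors set aside, and which of the 7 were selected is unknown. The last column of the list is a score whose making the authors do not state. The list has 4 columns, and 0 columns of per-sample values were left out.

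Peaks were set against GENCODE release 44 and GRCh38 with Python 3.11.15 (figures, matplotlib 3.10.9). Starts count from 1. Chromosome names matched except for 4 peaks on scaffolds, and 0 peaks ran past a chromosome end. A peak belonged to a gene that wholly contained it. Exons and splice sites came from all transcripts unless the MANE Select transcript is named, and 1 nt sufficed for an overlap or on each side of a boundary. A retained intron is covered by a transcript of that type in the annotation. Read-through genes were left out of the share of genes with a peak. The interval code was tested on simulated peaks.

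Named genes are the 4 chosen, every gene that overlaps or is hosted by them as far as described, ATG16L1 as the other gene with a value of 3, and every listed gene with a peak; TNRC6B, TNRC6C and NONO are named outside this rule. Some items are not reported here and are not counted in the lists. The members and lists were chosen with earlier results of these data known. No statistical test was made, since the list holds no value per library.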

Additional observations from a re-analysis of the deposited data

How the results depend on the processing

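Of 62 alternative settings computed for the counts and positions in TNRC6A, SFPQ, CLASRP and NCL, 54 left a count within 1.5 times, or a share or distance within 1 percentage point or nt, and 8 moved it further. With peaks of a value of 2 or more alone, 4 peaks remained in place of 7, by construction. With the central 50 nt of each peak, 3 peaks crossed a 5′ splice site in place of 5 (TNRC6A peak 1 and SFPQ peak 1 were lost), and 1 touched a retained intron in place of 2. TNRC6A peak 1, with 1 exonic nt, also lost its crossing and its exon when 10 nt were required and without the first 50 nt, which left 4 peaks across a boundary and a 5′ splice site and 5 on an exon in place of 6. When a transcript had to cover the whole intron, 0 did. The exonic share fell from 100% to 70.7% for CLASRP peak 1 and to 48.2% for NCL peak 1 with the MANE Select transcript alone or with protein-coding transcripts alone, because the retained intron transcripts are then left out. No replicate could be left out, and no paired analysis was possible because the list holds no value per library. The depth behind each peak is unknown.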
